A study of Mus musculus with 12 samples.

Results

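Ribosome footprints, the stretches of mRNA shielded by ribosomes from nuclease, were counted per gene in 4 libraries of ES-E14TG2a, a mouse embryonic stem cell line. In these cells the release factor eRF1, product of Etf1, carries a dTAG degron. Treated cells (2 libraries, replicates A and B) received 500 nM dTAG-13 for 1 h. This compound links tagged proteins to a ubiquitin ligase and so has them degraded. Untreated cells (2 libraries, also A and B) carried the same tag. Both groups are wild type for Gcn2, and both were grown in LIF with the GSK3 inhibitor CHIR99021 and the MEK inhibitor PD0325901. Lysates were digested with RNase I and 80S ribosomes were taken from sucrose gradients. The whole series holds 12 libraries. The other libraries are 4 of footprints from Gcn2 knockout cells with the same tag and treatment and 4 of poly(A) RNA from wild-type cells. The labels list neither a vehicle control nor untagged cells given the compound, so effects of the compound and of eRF1 loss cannot be told apart. Nothing in the labels says whether the cells are 1 clone.

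eRF1 reads the 3 stop codons and, with the GTPase eRF3, releases the finished protein from the ribosome. When it is missing, ribosomes can wait at stop codons or read through them, and ribosomes behind them can queue. Footprint counts per gene add up all ribosomes on its mRNA, whether moving, waiting or queued. The classes described below build cell shape, the gates of the nucleus, contacts to matrix and neighbours, the uptake of nutrients and ions, and the response to growth factors. All genes of the footprint table were the members, and 12267 of 22034 symbols had enough counts to be tested.

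Treated libraries A and B held 7874804 and 14061463 counts, and untreated libraries A and B held 19691716 and 17052771. Levels are given as CPM, counts relative to the library total corrected by the TMM factor of each library, so they are shares of a library and a change common to all mRNAs was not measured. CPM are not divided by gene length, so only the same gene is compared between libraries. Changes are log2 differences, treated minus untreated, from edgeR's quasi-likelihood test over all 8 footprint libraries, with n = 2 per group. The threshold for a call was an adjusted p (Benjamini-Hochberg) of 0.05. Pluripotency markers were abundant, with Pou5f1 at 1048 and 1088 CPM in treated cells, against 1356 and 1256 CPM in untreated cells. Nanog had 2142 and 1918 CPM in treated cells, against 1605 and 1998 CPM in untreated cells. The fibroblast marker Col1a1 stood at 1.33 and 0.786 CPM in treated cells, against 1.65 and 1.17 CPM in untreated cells, and none of the 9 two-cell-like markers had enough counts to be tested. Etf1 itself had 211 and 214 CPM in treated cells, against 198 and 185 CPM in untreated cells. It was not called (adjusted p = 0.552), and these counts do not measure the protein, which is what dTAG-13 removes. By marker list, the 20 naive pluripotency genes summed to 13086 and 11863 CPM in treated and 12308 and 12129 CPM in untreated cells, and 1 of them, Dppa2, rose (log2 change 0.55, SE 0.114). The 6 tested trophoblast markers summed to 88.2 and 92.3 CPM in treated and 95.1 and 90.5 CPM in untreated cells, and the 5 tested fibroblast markers to 66.6 and 93.6 CPM in treated and 47.9 and 74.2 CPM in untreated cells. None of these 11 was called by edgeR, none had an unadjusted p under 0.05, and DESeq2 called 0.

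In wild-type cells 361 genes rose and 238 fell, which is 2.94% and 1.94% of the genes tested, or 4.88% together. In all 599 the 2 treated libraries lay on one side of the 2 untreated ones, as they did in 5536 of the 12267 genes tested. Their footprint levels differed: the median average log2 CPM was 6.63 among the risers and 5.35 among the fallers, against 4.26 over all genes tested. Most changes were under 2-fold, since 70 risers and 29 fallers passed that size. The count depended on single libraries. It was 237 without treated replicate A, 334 without treated replicate B, 197 without untreated replicate A and 659 without untreated replicate B, while 124 genes (79 up, 45 down) were called in each of these 4 fits. A fit of only the 4 wild-type libraries called 19 genes, 13 up and 6 down, and these were all among the 599. The risers of that fit included Atf4, Eif5b, Ckap5, Cdh11, Matr3, Larp4, Dync1h1, Vcl, Ranbp2, Tpr and the histone genes H2bc14 and H2ac6, and the fallers were Slc20a1, Nadk, Sh3bp4, Sec14l1, Ei24 and Dlc1. Untreated replicate A was lower than untreated replicate B in 256 of the 361 risers (70.9%), in 96 of the 238 fallers (40.3%) and in 50.1% of all genes tested; the part of that difference in the calls was not tested.

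**Figure D1:**
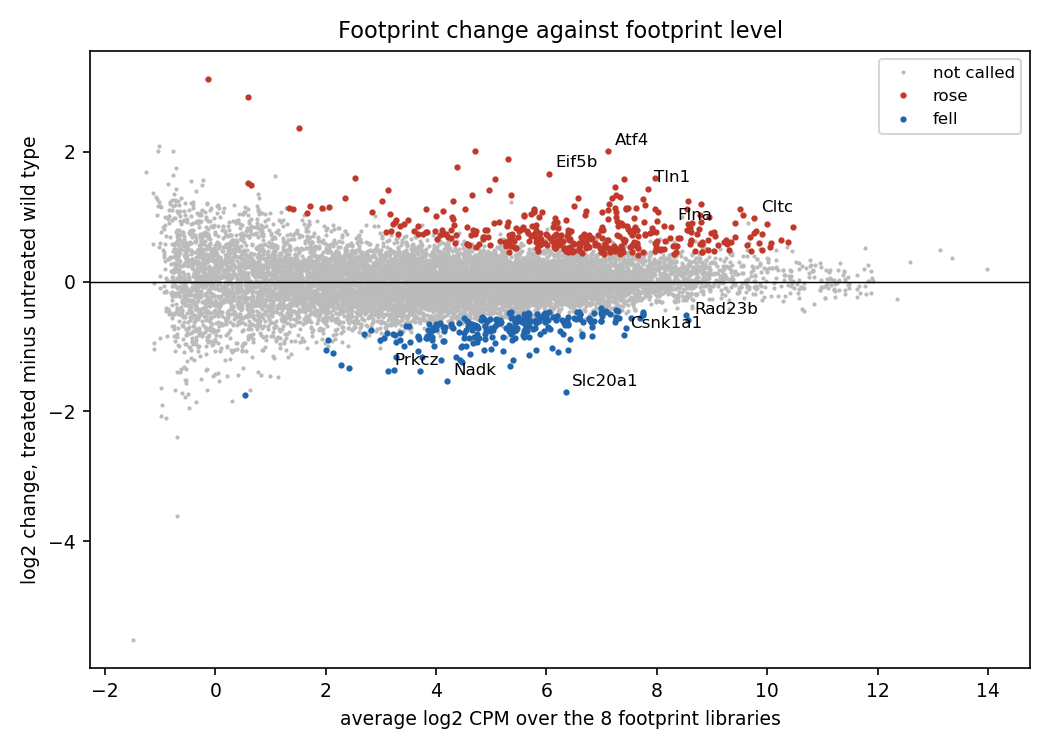
Log2 change of wild-type footprints, treated minus untreated (vertical axis), against the average log2 CPM over the 8 footprint libraries (horizontal axis), 1 point per gene, for 12267 genes. The 361 genes that rose (red) lie further to the right than the 238 that fell (blue), with median levels of 6.63 and 5.35.

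Rises outnumbered falls among cytoskeletal genes. Of 385 tested members of 6 lists (actin, myosin, cortex, microtubule, cytokinesis, and centrosome and cilium genes), 28 rose (7.27%, against 2.94% of all genes tested) and 8 fell (2.08%, against 1.94%), and their median log2 change was 0.11, against -0.01 over all genes tested. No RNA change of these 385 genes was called. The counts were 17 up and 4 down without treated replicate A, 10 and 5 without treated replicate B, 6 and 4 without untreated replicate A, and 34 and 8 without untreated replicate B. With the wild-type libraries alone, Ckap5 and Dync1h1 were called.

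The microtubule genes held the largest rises. Ckap5 (chromosome 2, 91526747 to 91620679 in GRCm38), which encodes a microtubule polymerase, had 236 and 239.8 CPM in treated cells, against 73.1 and 101 CPM in untreated cells. Both treated libraries were above 2 times the level of either untreated one, and the log2 change was 1.45 (SE 0.200, adjusted p = 0.00316). Dync1h1, the heavy chain of the cytoplasmic dynein motor, had 276 and 243 CPM in treated cells, against 117 and 123 CPM in untreated cells, a log2 change of 1.12 (SE 0.141, adjusted p = 0.00171). The groups were well apart, and each group's pair lay close together. Kif4, a chromosome-associated kinesin, was at 54.5 and 60.8 CPM in treated cells, against 27.2 and 38.3 CPM in untreated cells. Its log2 change was 0.82 (SE 0.203, adjusted p = 0.0398), and it was called in 1 of the 4 fits that left out a library. Of 113 microtubule and motor genes tested, 8 rose and 2 fell. The other risers were Tuba1c, Kif13b, Tbce, Tubb2b and Map1b, and tubulin genes have close copies whose shared reads may have been split. The fallers were Nde1, a dynein regulator (log2 change -0.49, SE 0.123), and Tubgcp3, a subunit of the gamma-tubulin complex (log2 change -0.47, SE 0.123). Tubb5, an abundant beta-tubulin gene, had 2728 and 2789 CPM in treated cells, against 2125 and 2391 CPM in untreated cells and was not called (adjusted p = 0.247).

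Among 84 actin filament genes, 9 rose and 3 fell. Flna, filamin A, which crosslinks actin filaments, had 391 and 539 CPM in treated cells, against 194 and 322 CPM in untreated cells. The groups did not overlap, but treated replicate A and untreated replicate B were close, and the adjusted p was 0.041 (log2 change 0.85, SE 0.208). Iqgap3, an actin-binding scaffold, had a log2 change of 0.75, SE 0.154. Wasl, or N-WASP, an activator of the Arp2/3 complex, fell: it had 27.6 and 23.4 CPM in treated cells, against 56.1 and 50.3 CPM in untreated cells. The log2 change was -1.07 (SE 0.140, adjusted p = 0.00203). Enah, which promotes actin filament elongation (log2 change -0.60, SE 0.120), and Nckap1, a subunit of the WAVE regulatory complex (log2 change -0.54, SE 0.137), fell as well. Other risers were the formin genes Daam1 and Diaph3, which nucleate filaments, and Tmsb4x, Iqgap1, Anln and Actn4. Leaving out treated replicate B or untreated replicate A left 1 riser in this list. Actb, cytoplasmic beta-actin, had 4355 and 3806 CPM in treated cells, against 3572 and 3684 CPM in untreated cells and was not called (adjusted p = 0.568).

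Nonmuscle myosin II heavy chains rose. Myh9 had 626 and 657 CPM in treated cells, against 342 and 481 CPM in untreated cells, a log2 change of 0.64 (SE 0.148, adjusted p = 0.0258). Myh10 had 101 and 102 CPM in treated cells, against 56.9 and 75.4 CPM in untreated cells, a log2 change of 0.62, SE 0.155. In both genes untreated replicate A was the lowest library. Rock2, a kinase that activates myosin II, fell instead, with 22.3 and 22.4 CPM in treated cells, against 40.4 and 37.7 CPM in untreated cells and a log2 change of -0.80 (SE 0.143, adjusted p = 0.00737). In all 3 of 28 genes of this list rose and 1 fell. None of the 3 risers was called without treated replicate A, treated replicate B or untreated replicate A.

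Cortical and intermediate filament genes gave rises only: 5 of 39 rose and 0 fell. Sptan1, the alpha-II spectrin chain of the membrane skeleton, had 586 and 557 CPM in treated cells, against 319 and 352 CPM in untreated cells. Its log2 change was 0.77 (SE 0.110, adjusted p = 0.00288), and it was called in each fit that left out a library. Nes, the intermediate filament protein nestin, had a log2 change of 0.81, SE 0.136 and was likewise called in each. Syne2, or nesprin-2, which ties the nucleus to actin, had a log2 change of 0.79, SE 0.165. The spectraplakin genes Macf1 and Dst, which link actin to microtubules, were the other risers. Nes is also 1 of 8 tested markers of primed and early germ layer cells, and the only one of them called; the summed level of that list was 136 and 146 CPM in treated and 99.4 and 124 CPM in untreated cells.

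Of the cytokinesis genes, Anln, or anillin of the contractile ring (log2 change 0.65, SE 0.158), and Cit, citron kinase (log2 change 0.54, SE 0.127), rose among 17 tested, and neither was called without treated replicate A, treated replicate B or untreated replicate A. The centrosome and cilium list stayed near the whole table, with 2 of 107 up and 2 down. Pcnt, pericentrin, a centrosome scaffold, rose (log2 change 0.58, SE 0.139). Cep162, a ciliary transition zone protein, rose (log2 change 1.07, SE 0.190). Cep192, a centrosome maturation factor, fell with a log2 change of -0.49, SE 0.115. Cfap20dc, a gene with a CFAP20 domain, had 6.50 and 8.50 CPM in treated cells, against 16.8 and 22.8 CPM in untreated cells, and its log2 change of -1.37 (SE 0.211, adjusted p = 0.00369) was called in each fit that left out a library.

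**Figure D2:**
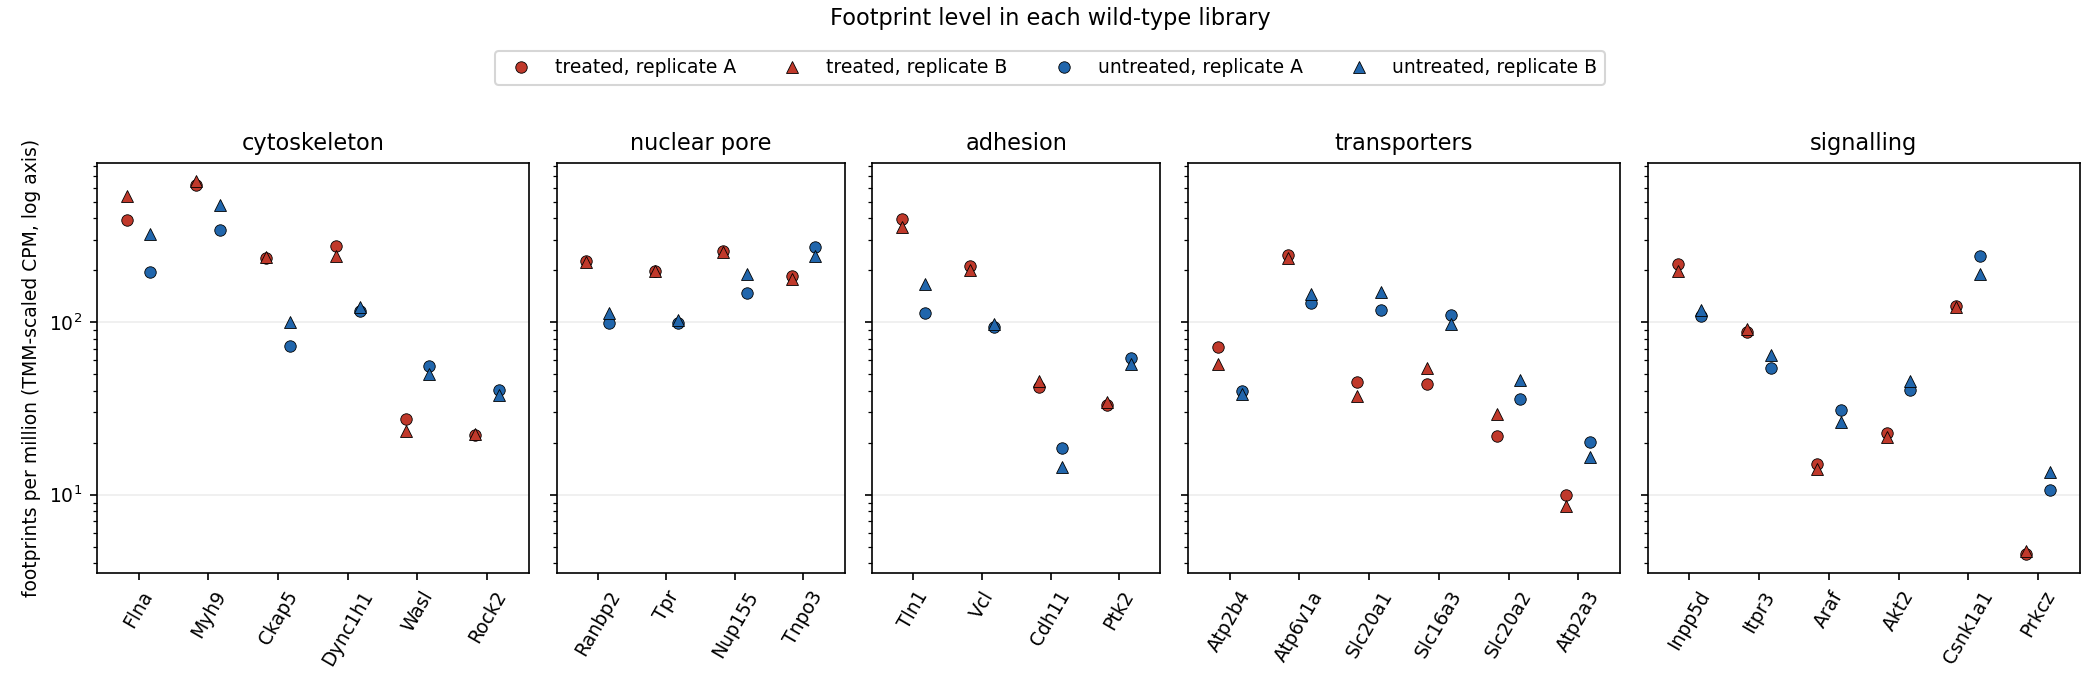
Footprint level (TMM-scaled CPM, log axis) of 26 named genes in each wild-type library, treated libraries in red left of untreated libraries in blue, with a circle for replicate A and a triangle for replicate B. Treated and untreated points do not overlap for any of these genes, which the choice of genes required. Ckap5 and Tln1 lie above their untreated levels and Slc20a1 and Prkcz below.

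Among nuclear pore genes the rises were all in nucleoporins. Of 33 nucleoporins, the building blocks of the pore, 5 rose (15.2%, against 2.94% of all genes tested) and 0 fell. Of 34 transport receptors and Ran cycle genes, which move cargo through it, 0 rose and 1 fell. Ranbp2 (chromosome 10, 58446852 to 58494155 in GRCm38), the largest nucleoporin of the cytoplasmic filaments, had 226 and 222 CPM in treated cells, against 99.1 and 114 CPM in untreated cells. The 2 treated libraries were nearly equal, and the log2 change was 1.08 (SE 0.164, adjusted p = 0.00375). Tpr, the main protein of the nuclear basket, had 199 and 199 CPM in treated cells, against 99.2 and 103 CPM in untreated cells, a log2 change of 0.97 (SE 0.132, adjusted p = 0.00215). Ranbp2 and Tpr were called in each fit that left out a library and with the wild-type libraries alone.

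The other 3 pore risers depended on single libraries. Nup155, a scaffold nucleoporin of the inner ring, had 258 and 255 CPM in treated cells, against 148 and 191 CPM in untreated cells, with untreated replicate B nearer to the treated libraries than A. The log2 change was 0.60 (SE 0.129, adjusted p = 0.0189). Nup214, a partner of mRNA export factors on the cytoplasmic face, had a log2 change of 0.51, SE 0.104, and the inner ring protein gene Nup205 one of 0.45, SE 0.106. Leaving out treated replicate A, treated replicate B or untreated replicate A left 2 nucleoporins up each time, and leaving out untreated replicate B gave 7. Tnpo3, an import receptor for splicing factors, had 185 and 178 CPM in treated cells, against 274 and 241 CPM in untreated cells. It fell by a log2 change of -0.50 (SE 0.115, adjusted p = 0.0244), and it was called in 1 of the 4 fits that left out a library. No RNA of the 67 genes was called.

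Adhesion genes went in both directions, with 5 of 167 up (2.99%, close to the 2.94% of all genes) and 5 down (2.99%, against 1.94%). Their median log2 change was 0.12, and it was -0.002 without treated replicate B and 0.004 without untreated replicate A. The counts were 3 up and 3 down without treated replicate A, 5 and 2 without treated replicate B, 3 and 2 without untreated replicate A, and 6 and 4 without untreated replicate B. The 2 linkers between integrins and actin stood out. Tln1 (chromosome 4, 43531513 to 43562583 in GRCm38), or talin, which binds and activates integrins, had 398 and 355 CPM in treated cells, against 113 and 166 CPM in untreated cells. Treated libraries were above 2 times either untreated one, with a log2 change of 1.43 (SE 0.170, adjusted p = 0.00133). Vcl, or vinculin, which binds talin under tension, had 211 and 201 CPM in treated cells, against 93.2 and 98.05 CPM in untreated cells. Its log2 change was 1.11 (SE 0.110, adjusted p = 0.00072), and it was also called with the wild-type libraries alone. Ptk2, the focal adhesion kinase that signals from the same sites, fell, with 33.3 and 34.5 CPM in treated cells, against 62.2 and 57.1 CPM in untreated cells and a log2 change of -0.81 (SE 0.123, adjusted p = 0.00353).

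At cell contacts Cdh11, a type II cadherin, had 42.1 and 45.8 CPM in treated cells, against 18.6 and 14.5 CPM in untreated cells. Its log2 change of 1.41 (SE 0.174, adjusted p = 0.0014) was among the largest rises, and it was called with the wild-type libraries alone. Ctnna1, or alpha-catenin, which joins cadherins to actin, had a log2 change of 0.58, SE 0.115. Cldn7, a tight junction claudin, had 10.7 and 11.9 CPM in treated cells, against 20.3 and 16.8 CPM in untreated cells and fell with a log2 change of -0.70 (SE 0.183, adjusted p = 0.0451). Among 28 cell polarity genes, 0 rose and 3 fell. Prkcz (chromosome 4, 155260118 to 155361428 in GRCm38), the atypical protein kinase C of the Par complex, had 4.51 and 4.72 CPM in treated cells, against 10.6 and 13.5 CPM in untreated cells, a log2 change of -1.38 (SE 0.214, adjusted p = 0.00389). Its scaffold partner Pard3 had a log2 change of -0.64, SE 0.151 and the planar polarity protein gene Vangl2 one of -0.72, SE 0.182. Prkcz was called in each fit that left out a library, and Vangl2 in none. In the extracellular matrix list Lama1, a laminin chain, was the only 1 of 52 called (log2 change 0.53, SE 0.135). Of these 52 genes 40 had a positive change and 12 a negative one. Their median was 0.28, or 0.15 to 0.41 without each library in turn. Lama1 is also a marker of primitive endoderm, whose 10 tested markers summed to 633 and 789 CPM in treated and 545 and 687 CPM in untreated cells, and no other of them was called; the part of such cells was not tested.

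Membrane transporter genes leaned to falls. Of 420 tested in 7 lists, 5 rose (1.19%, against 2.94% of all genes tested) and 13 fell (3.10%, against 1.94%). Their median log2 change was -0.06. The counts were 2 up and 4 down without treated replicate A, 3 and 9 without treated replicate B, 1 and 7 without untreated replicate A, and 5 and 10 without untreated replicate B. The median was -0.005 without treated replicate A and turned to 0.01 without untreated replicate B. Slc20a1 (chromosome 2, 129198773 to 129211615 in GRCm38), a sodium-dependent phosphate importer, had 44.99 and 37.4 CPM in treated cells, against 118 and 149 CPM in untreated cells. Every treated library was under the lowest untreated one by more than 2 times, and the log2 change of -1.70 (SE 0.163, adjusted p = 0.000719) was called with the wild-type libraries alone. The paralog Slc20a2, which imports phosphate too, had 22.03 and 29.5 CPM in treated cells, against 35.9 and 46.2 CPM in untreated cells, a log2 change of -0.66 (SE 0.166, adjusted p = 0.0403). Slc39a1, a zinc importer, had a log2 change of -0.55, SE 0.136. These 3 were the only calls among 64 carriers of phosphate, metals and other inorganic ions.

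Slc16a3, a lactate exporter, had 43.5 and 54.2 CPM in treated cells, against 110.1 and 97.04 CPM in untreated cells. It fell by a log2 change of -1.08 (SE 0.139, adjusted p = 0.00179) and was called in each fit that left out a library. Slc23a2, a vitamin C importer (log2 change -0.53, SE 0.116), Mfsd14a (log2 change -0.66, SE 0.132) and the glucose importer gene Slc2a1 fell in the same list of 117 other carriers, where 86 had a negative change and 31 a positive one. Mfsd4b1 and Slc35a4 rose there, both at low counts: Slc35a4 had 7.70 and 4.72 CPM in treated cells, against 3.00 and 2.46 CPM in untreated cells. Of 38 amino acid transporters 0 were called by edgeR, 2 had an unadjusted p under 0.05 and DESeq2 called 1; their median was 0.12, or -0.02 to 0.19 without each library in turn. In the mitochondrial carrier list the median was -0.20 over 45 genes, and it was negative without each library in turn. Only Slc25a17, a peroxisomal cofactor carrier of that family (log2 change 0.45, SE 0.120), and Mtch1, an outer membrane protein (log2 change -0.57, SE 0.125), were called in it.

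Pump genes went both ways. Atp2b4, a plasma membrane calcium pump, rose, with 71.9 and 57.2 CPM in treated cells, against 40.2 and 38.5 CPM in untreated cells and a log2 change of 0.71 (SE 0.166, adjusted p = 0.0285). Atp2a3, a calcium pump of the endoplasmic reticulum, fell, with 9.95 and 8.58 CPM in treated cells, against 20.1 and 16.5 CPM in untreated cells and a log2 change of -0.998 (SE 0.189, adjusted p = 0.0106). The mitochondrial exporter gene Abcb10 fell (log2 change -0.62, SE 0.131). In the vacuolar proton pump, which acidifies lysosomes, Atp6v1a, the catalytic subunit, had 246 and 234 CPM in treated cells, against 128 and 145 CPM in untreated cells. The log2 change was 0.82 (SE 0.129, adjusted p = 0.00427). Atp6v1c1, a subunit of the same outer sector, moved the other way, with 63.7 and 72.97 CPM in treated cells, against 125 and 114 CPM in untreated cells and a log2 change of -0.81 (SE 0.120, adjusted p = 0.00317). Both were called in each fit that left out a library. Of 95 ion channels 0 rose and 2 fell, the lysosomal channel gene Tpcn1 (log2 change -0.78, SE 0.177) and the mechanosensitive channel gene Tmem63b (log2 change -0.53, SE 0.140).

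**Figure D3:**
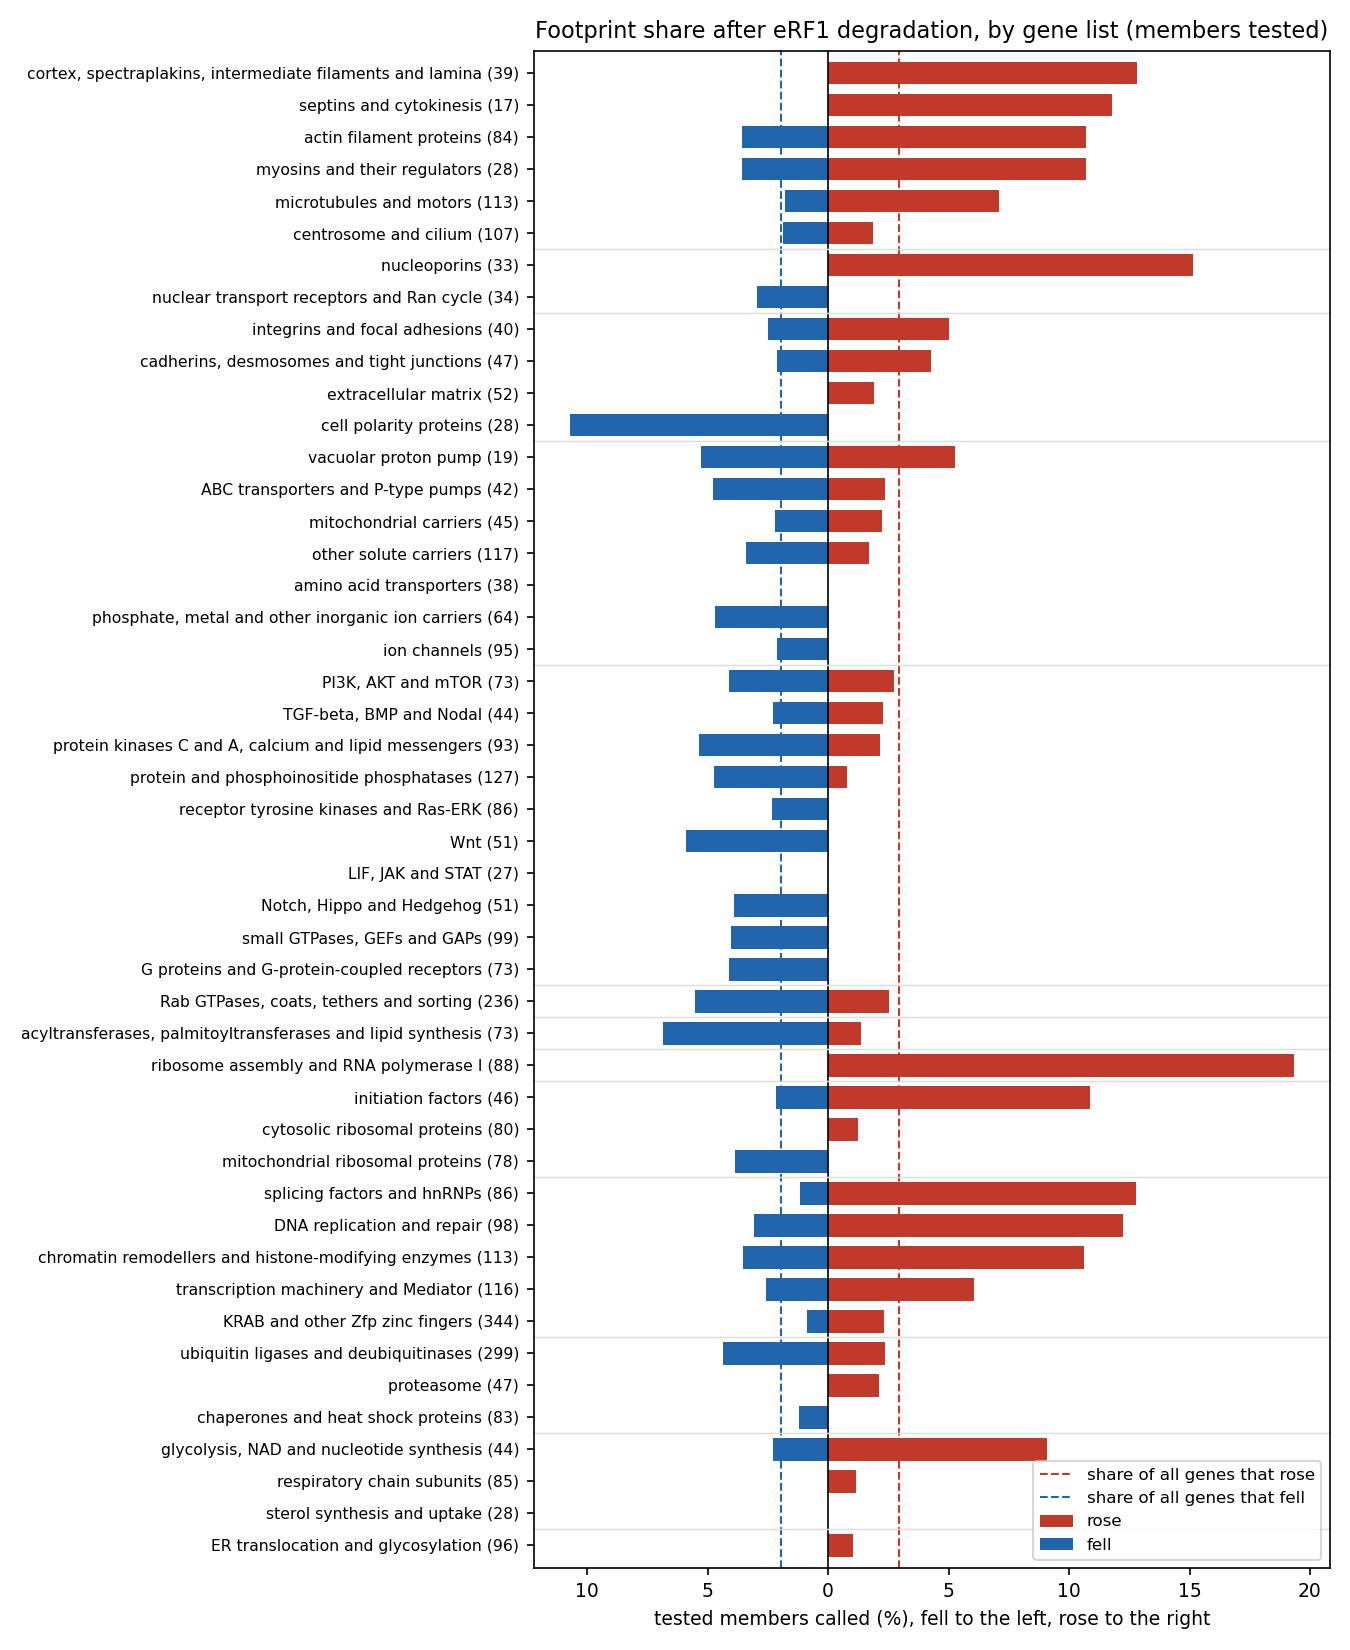
Share of tested members called in each gene list (histones and cell type markers not shown), with rises to the right in red and falls to the left in blue, and the number tested in brackets. Dashed lines give the shares over all genes, 2.94% up and 1.94% down; ribosome assembly genes (17 of 88 up) and nucleoporins (5 of 33 up) reach furthest right, and cell polarity genes (3 of 28 down) furthest left.

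Falls outnumbered rises among signalling genes. Of 714 tested in 10 lists, 6 rose (0.84%, against 2.94% of all genes tested) and 28 fell (3.92%, against 1.94%). Their median log2 change was -0.07. The counts were 2 up and 14 down without treated replicate A, 4 and 11 without treated replicate B, 2 and 11 without untreated replicate A, and 8 and 26 without untreated replicate B, and the median was negative each time. With the wild-type libraries alone 0 were called. In poly(A) RNA 26 of 15955 genes were called by edgeR (0.163%), and 8 by DESeq2. Of these 714 signalling genes 5 rose in RNA by edgeR: Spry4 (log2 change 0.78), Amotl2 (0.63), Id3 (0.34), Epha2 (0.34) and Socs3 (0.26). Of these, Id3 was the only one called in footprints. Araf, a kinase at the top of the ERK pathway, had 15.1 and 14.01 CPM in treated cells, against 31.03 and 26.5 CPM in untreated cells, a log2 change of -0.99 (SE 0.162, adjusted p = 0.00527). It was called in each fit that left out a library. Of 86 receptor tyrosine kinase and Ras-ERK genes 0 rose and 2 fell, in cells whose medium held a MEK inhibitor in both groups.

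The PI3K list went both ways. Akt2, a kinase that transmits PI3K signals, had 22.8 and 21.7 CPM in treated cells, against 40.4 and 45.5 CPM in untreated cells, a log2 change of -0.95 (SE 0.137, adjusted p = 0.00288). The catalytic subunits Pik3cb (log2 change -0.69, SE 0.153) and Pik3c2a (log2 change -0.66, SE 0.131) fell with it. Inpp5d, or SHIP1, a phosphatase that removes the lipid product of PI3K, rose, with 218 and 198 CPM in treated cells, against 109 and 118 CPM in untreated cells and a log2 change of 0.88 (SE 0.126, adjusted p = 0.00288). Pik3r4, the regulatory subunit of the endosomal lipid kinase Vps34, rose (log2 change 0.73, SE 0.144). Of 73 genes tested 2 rose and 3 fell.

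In the Wnt list 0 genes rose and 3 fell. Csnk1a1, a casein kinase gene whose product primes beta-catenin for degradation, had 124 and 122 CPM in treated cells, against 242 and 191 CPM in untreated cells, a log2 change of -0.82 (SE 0.129, adjusted p = 0.00427). Csnk1g1, a kinase of Wnt receptors, had 5.04 and 4.50 CPM in treated cells, against 11.1 and 10.2 CPM in untreated cells, a log2 change of -1.17, SE 0.222. Tnks2, a tankyrase that marks axin for destruction, had a log2 change of -0.61, SE 0.124. The list held 51 tested genes, in cells given a GSK3 inhibitor in both groups. Among 44 genes of TGF-beta, BMP and Nodal signalling, Id3, an inhibitor of differentiation factors, had 55.5 and 38.1 CPM in treated cells, against 19.98 and 16.7 CPM in untreated cells. It rose by a log2 change of 1.34 (SE 0.250, adjusted p = 0.0127), and its poly(A) RNA rose too (log2 change 0.34, adjusted p = 0.0301). Zfyve9, which presents SMADs to the receptor, had a log2 change of -0.74, SE 0.132. Of 27 LIF, JAK and STAT genes 0 were called by edgeR, 5 had an unadjusted p under 0.05 and DESeq2 called 1.

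Of 99 small GTPase genes and their regulators and effectors, 0 rose and 4 fell. Dock5, an activator of Rac, had 36.2 and 40.02 CPM in treated cells, against 64.1 and 66.1 CPM in untreated cells, a log2 change of -0.77 (SE 0.124, adjusted p = 0.00484). Pak4, a kinase under Cdc42 (log2 change -0.61, SE 0.146), Arhgap42, a GTPase-activating protein (log2 change -0.66, SE 0.175), and Dock1, another Rac activator, were the others. Outside the lists, Dlc1, another GTPase-activating protein, had 59.9 and 56.5 CPM in treated cells, against 123 and 119 CPM in untreated cells. Its log2 change was -1.06 (SE 0.114, adjusted p = 0.000859), and it was called with the wild-type libraries alone. The kinases Stk4, or Mst1 (log2 change -0.58, SE 0.155), and Map4k4 (log2 change -0.48, SE 0.112), both upstream in the Hippo pathway, fell among 51 genes of Notch, Hippo and Hedgehog signalling; neither was called in more than 1 fit that left out a library.

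Calcium and G-protein genes added both directions. Itpr3, a calcium release channel of the endoplasmic reticulum, had 87.98 and 91.4 CPM in treated cells, against 54.2 and 64.5 CPM in untreated cells, a log2 change of 0.60 (SE 0.126, adjusted p = 0.0169). Akap12, a scaffold for kinases A and C, had a log2 change of 0.54, SE 0.132. Ppp3cb, a catalytic subunit of calcineurin, had 29.9 and 28.2 CPM in treated cells, against 59.3 and 48.3 CPM in untreated cells, a log2 change of -0.89 (SE 0.150, adjusted p = 0.00583). Nfatc3, a transcription factor that calcineurin activates, had a log2 change of -0.69, SE 0.145. With Prkcz, Akap10 and Pi4kb, 5 of these 93 genes fell and 2 rose. The receptor kinase Grk2 (log2 change -0.78, SE 0.135) and the G-protein subunits Gna11 (log2 change -0.63, SE 0.162) and Gnb1 (log2 change -0.56, SE 0.134) were the only calls among 73 genes of their list. Among 127 phosphatase genes 6 fell, and Ppp1r15a, which directs a phosphatase to eIF2, was the 1 that rose, with 16.7 and 12.2 CPM in treated cells, against 7.34 and 8.15 CPM in untreated cells and a log2 change of 0.88, SE 0.199.

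Falls also outnumbered rises among membrane traffic genes, and the 6 risers were coat or adaptor subunits. Of 236 tested, 6 rose (2.54%, against 2.94% of all genes tested) and 13 fell (5.51%, against 1.94%). Rises outnumbered falls without treated replicate A. The counts were 3 up and 2 down without treated replicate A, 3 and 6 without treated replicate B, 0 and 3 without untreated replicate A, and 5 and 12 without untreated replicate B. Cltc, the clathrin heavy chain, had 1263 and 1265 CPM in treated cells, against 541 and 739 CPM in untreated cells, a log2 change of 0.98 (SE 0.173, adjusted p = 0.00737). The adaptor subunit Ap2b1 rose (log2 change 0.70, SE 0.126), with Ap3b1, Ap1b1, Copa and Sec23b. Sh3bp4, an inhibitor of transferrin receptor uptake, had 27.1 and 25.1 CPM in treated cells, against 60.3 and 67.97 CPM in untreated cells. It fell by a log2 change of -1.30 (SE 0.141, adjusted p = 0.000859) and was called with the wild-type libraries alone. Sec24a, a cargo adaptor of the COPII coat, fell too (log2 change -0.81, SE 0.139), as did Copz2, Ap2m1 and the small GTPase genes Rab10, Rab22a, Rab5c and Arf5. In lipid synthesis the palmitoyltransferase genes Zdhhc2 and Zdhhc16 and the acyltransferase gene Agpat3 were among 5 of 73 that fell; Agpat3 had 11.01 and 12.1 CPM in treated cells, against 29.8 and 25.3 CPM in untreated cells, a log2 change of -1.24 (SE 0.159, adjusted p = 0.00177).

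The nucleolus held the highest share of risers among the lists other than histones. The share called can follow footprint level, whose part was not tested. The 344 Zfp zinc finger genes had a higher median log2 change, 0.21, but 8 of them rose (2.33%). Those 344 genes summed to 5878 and 5791 CPM in untreated cells, against 15705.5 and 16043.4 CPM for the 88 nucleolar genes. Of 88 genes of ribosome assembly and RNA polymerase I, 17 rose (19.3%, against 2.94% of all genes tested) and 0 fell, with 73 positive changes and a median of 0.18. The risers numbered 8 without treated replicate A, 9 without treated replicate B, 4 without untreated replicate A and 19 without untreated replicate B. Pdcd11, which acts in processing of ribosomal RNA, had 55.6 and 60.6 CPM in treated cells, against 14.5 and 24.3 CPM in untreated cells, a log2 change of 1.59 (SE 0.227, adjusted p = 0.00351). Mdn1, the ATPase that removes assembly factors from the large subunit, had 230.0 and 238 CPM in treated cells, against 92.2 and 122 CPM in untreated cells, a log2 change of 1.13 (SE 0.150, adjusted p = 0.00215). Ncl, Utp20 and Ddx21 were among the others.

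Few ribosomal protein genes were called. Among 80 cytosolic ribosomal protein genes Rpl21, whose pseudogene copies may share reads, was the only 1 called (log2 change 0.54, SE 0.124), and of 78 mitochondrial ones 3 fell (0 without treated replicate B, 5 without untreated replicate B). Initiation factors gave 5 of 46 up, led by Eif5b, the GTPase that joins the subunits, with 112 and 103 CPM in treated cells, against 28.2 and 39.6 CPM in untreated cells and a log2 change of 1.66 (SE 0.209, adjusted p = 0.00215). Eif4g1, the scaffold of the cap-binding complex, had 633 and 691 CPM in treated cells, against 241 and 338 CPM in untreated cells, a log2 change of 1.19 (SE 0.152, adjusted p = 0.00177). Eif2d, which can recycle ribosomal subunits, fell, with 34.2 and 38.9 CPM in treated cells, against 68.3 and 83.8 CPM in untreated cells and a log2 change of -1.05, SE 0.142.

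Among nuclear genes 11 of 86 splicing genes rose (12.8%, against 2.94% of all genes tested) and 1 fell (1.16%, against 1.94%). Snrnp200, the helicase that unwinds U4 from U6, had 549.7 and 531 CPM in treated cells, against 198 and 299 CPM in untreated cells, a log2 change of 1.12 (SE 0.168, adjusted p = 0.00353). Srrm2, a scaffold of nuclear speckles, had 1104 and 1138 CPM in treated cells, against 446 and 589 CPM in untreated cells, a log2 change of 1.12 (SE 0.138, adjusted p = 0.0014). The chromatin list gave 12 of 113 up (10.6%) and 4 down (3.54%). Chd4 (log2 change 0.85, SE 0.196) and Chd6 (log2 change 0.88, SE 0.193), both remodelling ATPases, led the rises. Polr2a, the largest subunit of RNA polymerase II, rose (log2 change 0.79, SE 0.145), as did Pola1, the catalytic subunit of the primase-linked DNA polymerase (log2 change 0.91, SE 0.172). The ubiquitin receptor gene Rad23b, counted in the DNA repair list, fell (log2 change -0.59, SE 0.107). Leaving out 1 library gave 4 to 16 splicing risers and 1 to 7 chromatin risers, the fewest without untreated replicate A for splicing and without treated replicate A for chromatin. Replication and repair genes gave 12 of 98 up (12.2%) and 3 down (3.06%), and transcription machinery 7 of 116 up (6.03%) and 3 down (2.59%). Zfp zinc finger genes gave 8 of 344 up (2.33%) and 3 down (0.87%), both under the shares over all genes tested. Without treated A, treated B, untreated A and untreated B in turn, the risers numbered 5, 7, 3 and 14 in replication and repair, 3, 3, 2 and 8 in transcription machinery, and 0, 4, 0 and 6 among Zfp genes. Of 58 replication-dependent histones, near-identical copies whose shared reads may have been split, 23 rose (39.7%) and 0 fell.

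Genes of protein turnover went both ways. Of 299 ubiquitin ligases and deubiquitinases 7 rose and 13 fell, and the counts were 3 up and 4 down without treated replicate A, 3 and 6 without treated replicate B, 3 and 1 without untreated replicate A, and 7 and 14 without untreated replicate B. Birc6, a very large ubiquitin ligase, had 565 and 617 CPM in treated cells, against 262 and 369.6 CPM in untreated cells, a log2 change of 0.91 (SE 0.151, adjusted p = 0.00565). Trim37, a ligase that limits centriole assembly, had 17.4 and 17.9 CPM in treated cells, against 29.6 and 35.2 CPM in untreated cells, a log2 change of -0.88 (SE 0.147, adjusted p = 0.00582). Nadk, or NAD kinase, had 10.4 and 8.58 CPM in treated cells, against 26.4 and 27.9 CPM in untreated cells. The log2 change was -1.54 (SE 0.181, adjusted p = 0.00131), and it was called with the wild-type libraries alone. Rrm1, a subunit of ribonucleotide reductase (log2 change 0.76, SE 0.171), and Cad, which starts pyrimidine synthesis (log2 change 0.81, SE 0.194), rose, each with untreated replicate A as the lowest library. Psmf1 was the 1 called of 47 proteasome genes (log2 change 0.55, SE 0.120), Bag1 of 83 chaperone genes (log2 change -0.68, SE 0.146), Cox7b of 85 respiratory chain genes (log2 change 0.55, SE 0.128) and Alg13 of 96 genes of the endoplasmic reticulum (log2 change 0.55, SE 0.133). Of 28 sterol genes 0 were called by edgeR, 7 had an unadjusted p under 0.05 and DESeq2 called 1.

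Further genes outside these classes were called in each fit that left out a library. Matr3, a nuclear matrix protein that binds RNA, had 213 and 210.5 CPM in treated cells, against 84.3 and 101 CPM in untreated cells, a log2 change of 1.20 (SE 0.133, adjusted p = 0.000917). Larp4, which protects poly(A) tails, had 145 and 129 CPM in treated cells, against 58.4 and 63.6 CPM in untreated cells, a log2 change of 1.16 (SE 0.130, adjusted p = 0.000917). Both were also called with the wild-type libraries alone. Knl1, a kinetochore scaffold, had 68.9 and 58.9 CPM in treated cells, against 28.9 and 21.4 CPM in untreated cells (log2 change 1.34, SE 0.207). Son, a speckle protein of splicing, had 411 and 269 CPM in treated cells, against 148 and 132 CPM in untreated cells (log2 change 1.27, SE 0.188). Among the fallers, Sec14l1, a protein with a lipid-binding domain, had 29.7 and 25.1 CPM in treated cells, against 61.5 and 64.4 CPM in untreated cells, a log2 change of -1.21 (SE 0.140, adjusted p = 0.00128). Ei24, a membrane protein of the endoplasmic reticulum, had 29.99 and 30.4 CPM in treated cells, against 69.8 and 62.1 CPM in untreated cells, a log2 change of -1.13 (SE 0.137, adjusted p = 0.00133). The SNARE gene Vti1b, which acts in endosomal fusion, fell (log2 change -1.20, SE 0.180), and so did Ivns1abp (log2 change -1.21, SE 0.199).

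Poly(A) RNA of the same treatment changed little where footprints did. In the RNA libraries 26 of 15955 genes were called, or 0.163%; the count was 267 without untreated replicate B and 14 without treated replicate A. Of the 346 footprint risers with RNA values 4 were called in RNA (Id3, Myc and Zfp819 among them), and of 237 fallers 0 were by edgeR or DESeq2, with 13 at an unadjusted p under 0.05. The median log2 change of RNA was 0.03 among the risers and -0.004 among the fallers. For Slc20a1 the RNA change was 0.05, for Ckap5 0.10, for Tln1 0.11 and for Ranbp2 0.01. The edgeR adjusted p values for RNA were 0.993 for Slc20a1 and 0.939 for Tln1.

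**Figure D4:**
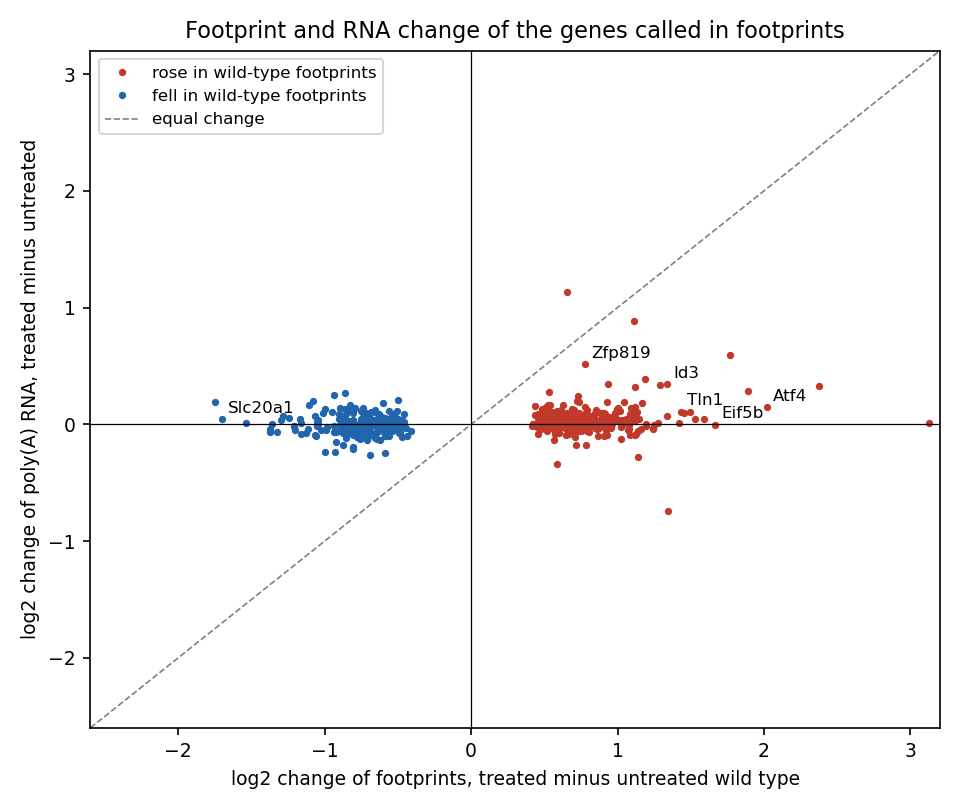
Log2 change of poly(A) RNA (vertical axis) against that of footprints (horizontal axis), both treated minus untreated wild type, for the footprint-called genes with RNA values (346 that rose in red, 237 that fell in blue). Points lie along the horizontal line, with RNA medians of 0.03 (risers) and -0.004 (fallers), and the dashed line marks equal change.

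The Gcn2 knockout libraries gave the same direction for most of these genes. They enter the wild-type test through the shared filter, scaling and spread, but not through the levels compared. Gcn2, encoded by Eif2ak4, is a kinase of the initiation factor eIF2; Eif2ak4 had 3.10 and 5.36 CPM in treated and 2.46 and 2.33 CPM in untreated knockout cells, against 33.97 and 33.2 CPM in treated and 27.7 and 29.4 CPM in untreated wild-type cells. Of the 361 wild-type risers 348 (96.4%) also had a positive change in the knockout, and 113 (31.3%) were called up there, where 3.16% of all genes were. Of the 238 fallers 227 (95.4%) had a negative change, and 153 (64.3%) were called down, where 5.71% of all genes were. The knockout and wild-type fits share one estimate of the spread, though not their samples. The median change of the wild-type risers was 0.38 in the knockout and 0.72 in wild type, and that of the fallers was -0.65 in the knockout and -0.70 in wild type. The genes were chosen on the wild-type change, so these medians are a description. Of all genes with a positive wild-type change 70.3% had a positive knockout change, and of those with a negative one 60.6% had a negative knockout change.

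Among the named genes of each class, both larger and smaller knockout values occurred. The knockout log2 change was -2.23 for Slc20a1 (adjusted p = 5.91e-05), and Sh3bp4 fell there by a log2 change of -1.88. For Tln1 it was 0.50 (adjusted p = 0.0846), for Ckap5 0.67 and for Eif5b 0.45, and these 3 were not called there. The difference between genotypes was itself tested, and 6 genes of 12267 passed (0.0489%), none of those 3 among them (Tln1 adjusted p = 0.219, Eif5b adjusted p = 0.190). Gpat2, an acyltransferase gene, fell in the knockout (-0.59) and rose in wild type (log2 change 0.53, SE 0.139). Mta1, a chromatin gene, went the other way (0.57 in the knockout, -0.54 in wild type). The edgeR adjusted p of the difference was 0.0713 for Gpat2 and 0.0713 for Mta1.

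**Figure D5:**
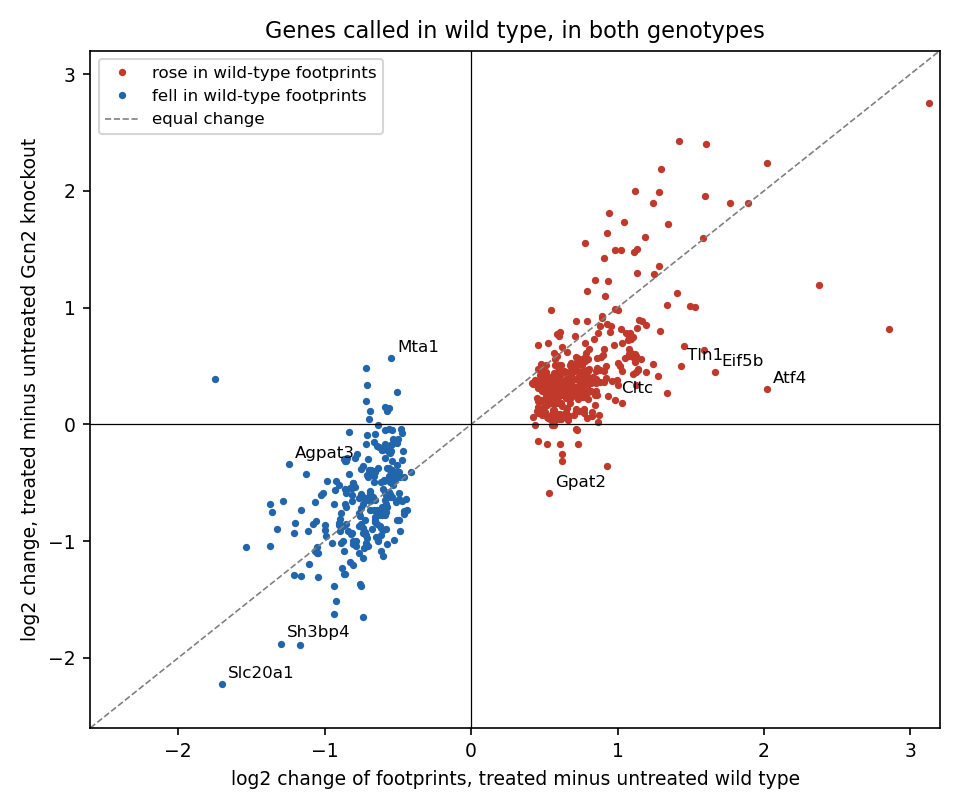
Log2 change in Gcn2 knockout footprints (vertical axis) against wild-type footprints (horizontal axis), both treated minus untreated, for the 361 genes that rose (red) and the 238 that fell (blue) in wild type. Most points share the sign of the wild-type change (348 risers and 227 fallers), Atf4 and Eif5b lie under the dashed line of equal change, and Slc20a1 is the lowest point.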

How the data were processed

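The deposited values were whole-number counts per gene symbol, 1 column per library, in a footprint table (22034 symbols, 5553 at 0 in all libraries) and an RNA table (49997 symbols). Per the submitters' processing notes, reads were handled with cutadapt, HISAT2 2.1.0 and CASAVA 1.4 on mm10. Not given in the sources used here are the counting tool, annotation, strand setting and handling of reads shared by genes. Names and coordinates come from RefSeq on GRCm38.p6. Per the labels A and B are biological replicates, and how they were kept apart is not described. Footprint p-values rest on the A-to-B spread pooled over all 4 groups, knockout included.

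The tests used edgeR 4.0.16 under R 4.3.3 (limma 3.58.1 and DESeq2 1.42.0 as alternatives). filterByExpr kept genes at its minimum count of 10, scaling was TMM, and the quasi-likelihood test with robust dispersions was fitted to 4 groups of the 8 footprint libraries (4 residual degrees of freedom) and to the 4 RNA libraries alone. Tests are two-sided with Benjamini-Hochberg adjustment. SEs come from the change and its F statistic. Replicates differed by more than counting error (chi-squared per degree of freedom 14.7 for the treated and 25.2 for the untreated wild-type pair). The spread is shared by all groups: the SD of the log2 ratio of A over B was 0.305 in treated and 0.296 in untreated wild type, and 0.144 in treated and 0.257 in untreated knockout libraries (8210 genes with average log2 CPM of at least 3). The knockout pairs were tighter, so the pooled spread can understate that of the wild-type libraries. A fit of the wild-type libraries alone called 19 genes.

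The members and the 54 gene lists were chosen with earlier results of these data known. Some lists were drawn by symbol patterns, and wrong matches were taken out after values were seen. Genes were named by a rule: up to 10 risers and fallers called without each library in turn (average log2 CPM of at least 3, no predicted genes, Atf4 or histones), genes called in wild-type libraries alone, up to 3 per direction from each cytoskeleton, nuclear pore, transporter, adhesion or signalling list and 2 from others, and 7 fixed genes. The first group and the genes taken from lists also had to have treated and untreated CPM that did not overlap. Further called members of a list are named without values or, for Nup205, Nup214, Mta1 and the signalling genes called in RNA, with them, chosen after their values were seen. Some genes that met the rule are not reported here. The sample description of treated knockout replicate B names the column of A, so it was matched by its title's letter.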

Additional observations from a re-analysis of the deposited data

Results flagged for a closer look

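Among the named genes called in wild-type footprints, Atf4 was the 1 whose change differed between genotypes by the test of that difference. It had 92.2 and 103 CPM in treated and 79.4 and 78.3 CPM in untreated knockout cells, and 361 and 255 CPM in treated and 81.3 and 70.7 CPM in untreated wild-type cells. The log2 change was 0.30 in the knockout and 2.02 in wild type, and the difference, knockout minus wild type, was -1.71 (SE 0.217, adjusted p = 0.0165) by edgeR's quasi-likelihood test, with 2 libraries per group.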

How the results depend on the processing

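Of 145 called genes named by the rule, none changed sign under any alternative. Treated and untreated CPM did not overlap in any of the 599 called genes, so the selection left little room for a reversal. The wild-type count of 599 was 1048 without a filter, 931 with a replicate block, 2109 with a replicate block within genotype, and 19 in wild-type libraries alone; leaving out 1 library gave 197 to 659. RLE scaling gave 599, upper-quartile scaling 590, a minimum count of 50 gave 620, DESeq2 gave 806 and voom with group weights 450. Named calls lost numbered 126 with wild-type libraries alone, 24 with voom, and 28 to 74 when 1 library was left out. DESeq2 and upper-quartile scaling lost 3 named calls each. The main fit did not treat the letters as pairs, while the fits with a replicate block took them into account. Both fits with a block kept all 599 calls and lost 0 of the 145 named ones. Deviations of same-letter libraries correlated at 0.651 in wild type and 0.174 in the knockout across genes. Same-letter wild-type libraries thus shared part of their spread, and its cause was not tested. Cytosolic ribosomal protein genes summed to 152205 CPM in treated and 158341 CPM in untreated replicate A, against 125962 and 127493 CPM in replicate B. Fits without 1 library are unbalanced by letter. The RNA count of 26 was 8 with DESeq2, 16 with the replicate block, and 14 to 267 without 1 library. Of 689 list medians under alternatives, 194 moved by more than that list's replicate spread, the SD of its median log2 ratio in replicates A and B. The comparison of protein length and stop codon was not run, since no genome or protein table was used here. Treated replicate A was the shallowest library, which limits calls at low counts.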
